A study of Mus musculus with 8 samples.

Results

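Prok2, Gpr27 and Eif4e3 lie side by side on mouse chromosome 6, and Retnlg lies on chromosome 16. These 4 genes, of 54188 in the count table, were followed across CD11b+Gr-1hi and CD11b+Gr-1lo myeloid cells sorted from the spleen (SP) and bone marrow (BM) of sanroque mice. They were selected by symbol with the Gr-1hi and Gr-1lo levels of these libraries already known, so the difference between the 2 subsets is described for them and not tested. All 4 passed the filter on low counts, together with 17650 genes in all.

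Every group came from homozygous Roquin san/san mice on C57BL/6, a lupus-prone strain, at about 20 weeks of age, and the labels give the sex as female. The mice received no treatment, and no library from wild-type mice was analysed here, so no comparison with a healthy animal could be made. The 4 groups were SP Gr-1hi, SP Gr-1lo, BM Gr-1hi and BM Gr-1lo, with 2 libraries in each. The libraries are named by the numbers in their titles: 5 and 6 for SP Gr-1hi, 7 and 8 for SP Gr-1lo, 9 and 10 for BM Gr-1hi, and 11 and 12 for BM Gr-1lo. The study treats Gr-1hi cells as granulocytic and Gr-1lo cells as monocytic myeloid-derived suppressor cells, with the BM cells as the reference, and the methods call the 2 libraries of a group independent biological replicates. Which libraries came from 1 mouse or from pooled mice is not given in the sources used here. Library totals ran from 33453580 to 68316154 counts, and 3 counts in a library corresponded to 0.0348 to 0.124 CPM, the count relative to a library total scaled by TMM.

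The subsets matched their gates, but 7 of the 8 libraries went against the label female. Itgam, which encodes CD11b, was at 734 CPM or more in every library. Ly6g, the granulocyte part of the Gr-1 epitope, was between 330 and 801 CPM in the 4 Gr-1hi libraries and between 3.07 and 8.23 CPM in the 4 Gr-1lo libraries. Xist, the RNA of the inactive X chromosome, had 12032 counts in library 5 and 9898 in library 7, against 0 to 5 in the other 6. Ddx3y, a Y-linked gene, had 0 counts in library 5, 1595 in library 7 and 1725 to 4902 in the rest. So only library 5 had the pattern of female mice, library 7 held both RNAs, and the other 6 had the pattern of males. Since libraries 5 and 7 thereby stood apart from the other 6, results that involve the SP groups are given without them as well, wherever a call or a direction changed. The libraries of SP Gr-1hi also differed most from each other: over genes, chi-square divided by its degrees of freedom was 68.2 there and 19.1 to 22.9 elsewhere.

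Prokineticins are small secreted ligands that act on a pair of G protein-coupled receptors, PROKR1 and PROKR2. PROK2, also named Bv8, is known from tumour-bearing mice as a factor that CD11b+Gr-1+ cells release under G-CSF and STAT3 signalling and that promotes angiogenesis. GPR27 is an orphan receptor of the SREB family, whose other members are GPR85 and GPR173. EIF4E3 is a divergent member of the eIF4E family, the proteins that bind the mRNA cap. RETNLG is a secreted, cysteine-rich protein of the resistin-like family that mouse neutrophil precursors and neutrophils of the marrow make in large amounts.

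The upstream sequences of Prok2 and Retnlg are shown because the 2 genes had nearly the same drop from Gr-1hi to Gr-1lo but sit behind very different starts, and Retnla is shown as the closest relative beside Retnlg. They are the 250 bases before the RefSeq start in GRCm38.p6, written 5′ to 3′ on the gene's strand. The intervals are chr6:99726393-99726642 on the minus strand for Prok2, chr16:48872358-48872607 on the plus strand for Retnlg and chr16:48842359-48842608 on the plus strand for Retnla. Capitals mark matches to CACGTG (E-box) and TGANTCA (AP-1) in Prok2, to TTGCNNAA (C/EBP) in Retnlg and Retnla, and to GAGGAA (ETS) and TATAAA in Retnla, on either strand. Entries for Gpr27 and Eif4e3 were not used here.
Prok2: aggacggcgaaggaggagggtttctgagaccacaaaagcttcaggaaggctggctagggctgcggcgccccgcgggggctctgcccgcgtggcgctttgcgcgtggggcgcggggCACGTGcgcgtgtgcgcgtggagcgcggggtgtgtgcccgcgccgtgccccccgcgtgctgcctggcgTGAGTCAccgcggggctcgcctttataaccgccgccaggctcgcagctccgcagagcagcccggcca
Retnlg: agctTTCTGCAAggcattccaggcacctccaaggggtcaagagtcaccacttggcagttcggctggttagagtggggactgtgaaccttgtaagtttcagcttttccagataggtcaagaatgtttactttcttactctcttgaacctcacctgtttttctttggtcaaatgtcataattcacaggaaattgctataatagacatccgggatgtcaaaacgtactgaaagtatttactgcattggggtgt
Retnla: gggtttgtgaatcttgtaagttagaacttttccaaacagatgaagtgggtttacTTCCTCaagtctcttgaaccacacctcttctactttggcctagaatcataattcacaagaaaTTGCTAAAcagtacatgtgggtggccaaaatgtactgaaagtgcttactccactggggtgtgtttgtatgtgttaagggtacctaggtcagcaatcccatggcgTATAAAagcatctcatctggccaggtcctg
The Prok2 sequence was rich in G and C, at 73.6%, with 34 CpG steps, whereas Retnlg had 43.2% and 3 CpG steps and Retnla 42.8% and 1. The E-box of Prok2 began 135 bases and the AP-1 match 67 bases before the start, and TATAAA read on the other strand began 46 bases before it. The C/EBP match began 246 bases before the start of Retnlg and 134 before that of Retnla, and the TATAAA of Retnla began 30 bases before it. These letters are common: among 32851 promoter entries, 6.02% held CACGTG, 6.75% TGANTCA, 9.56% TTGCNNAA, 23.3% GAGGAA and 12.4% TATAAA in the same length. TTCNNNGAA (STAT), held by 7.02% of entries, matched none of the 3 windows, which says only that these letters were not there. The 250 bases of Retnlg and Retnla could be aligned over 175 base pairs, of which 138 were identical (78.9%). Aligned in the same way, Retnlg and Retn had 138 of 212 pairs identical (65.1%), and Retnlg and Prok2, which are not related, 117 of 214 (54.7%).

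Prok2 (ENSMUSG00000030069, GRCm38 chr6:99711299-99726392, minus strand) was a gene of the Gr-1hi subset in both tissues. It had 90.8 and 19.7 CPM in the SP Gr-1hi libraries 5 and 6, and 31.2 and 58.3 CPM in the BM Gr-1hi libraries 9 and 10. The Gr-1lo libraries had 0.084 and 0.151 CPM in SP and 0.082 and 0.170 CPM in BM, which are 4, 13, 4 and 9 counts. The lowest Gr-1hi library thus lay far above the highest Gr-1lo library, but within each Gr-1hi group the libraries were far apart, 4.60-fold in SP and 1.87-fold in BM. The log2 difference of Gr-1hi minus Gr-1lo was 8.42 (SE 1.17) in BM and 8.74 (SE 1.14) in SP. In bulk RNA, fewer cells that express a gene and less RNA per cell cannot be told apart, so the few counts in Gr-1lo may be a low level in many cells or a high level in few.

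Gpr27 (ENSMUSG00000072875, chr6:99692679-99695066, plus strand, 1 exon) kept its libraries much closer together. SP Gr-1hi had 34.0 and 32.9 CPM and BM Gr-1hi 79.2 and 91.5 CPM. SP Gr-1lo had 0.127 and 0.093 CPM, from 6 and 8 counts, and BM Gr-1lo 0.246 and 0.435 CPM, from 12 and 23 counts. In both subsets each SP library was below each BM library. With 2 libraries in each group such a parting is easily reached. The share of all genes that part in this way was not counted, for this gene or for the others. The difference of Gr-1hi minus Gr-1lo on the log2 scale was 7.95 (SE 0.21) in BM and 8.28 (SE 0.23) in SP.

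Eif4e3 (ENSMUSG00000093661, chr6:99625135-99666771, minus strand) was expressed in all 4 groups. It had 51.3 and 61.9 CPM in SP Gr-1hi, 54.9 and 61.5 CPM in SP Gr-1lo, 100.2 and 112.7 CPM in BM Gr-1hi, and 54.8 and 63.8 CPM in BM Gr-1lo. Only BM Gr-1hi was separate from the rest, and the other 3 groups overlapped. The log2 difference of Gr-1hi minus Gr-1lo was 0.84 (SE 0.13) in BM and −0.04 (SE 0.13) in SP. Under total-count scaling, without the TMM factors of 0.724 to 1.30, these became 0.03 and −0.64, so neither the excess in BM Gr-1hi over Gr-1lo nor the near equality in SP held across scalings. That scaling moved the median of all genes from −0.17 to −0.99 in BM and from −0.09 to −0.69 in SP, and Eif4e3 lay above that median in each of the 4 pairs of values.

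Retnlg (ENSMUSG00000022651, chr16:48872621-48874496, plus strand) had some of the highest counts of any gene in the Gr-1hi cells. It had 3106 and 4045 CPM in SP Gr-1hi and 9223 and 8339 CPM in BM Gr-1hi, or 0.268% to 0.675% of all counts, and its count ranked 10 among all genes in both BM Gr-1hi libraries. In Gr-1lo it had 7.91 and 14.9 CPM in SP and 17.3 and 32.1 CPM in BM. The subsets did not overlap, and in both of them the SP libraries lay below the BM libraries, which is a description only. The log2 difference of Gr-1hi minus Gr-1lo was 8.47 (SE 0.49) in BM and 8.28 (SE 0.49) in SP.

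**Figure D1:**
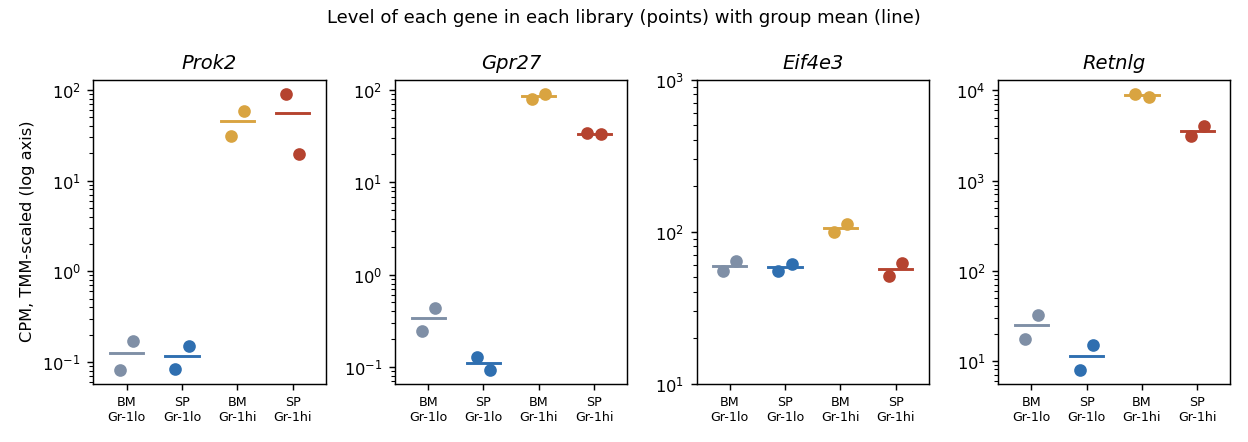
CPM (TMM-scaled, log axis, a separate range for each gene) of Prok2, Gpr27, Eif4e3 and Retnlg in the 4 groups; each point is 1 library and each line the mean of the 2. Prok2, Gpr27 and Retnlg are higher in Gr-1hi than in Gr-1lo cells in every library, Eif4e3 is not, and the SP Gr-1hi libraries of Prok2 lie 4.60-fold apart.

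The level in Gr-1lo cells was set against that in Gr-1hi cells, beside neutrophil genes. The mean CPM of Gr-1lo was 0.282% of that of Gr-1hi for Prok2 in BM and 0.213% in SP, where it was 0.595% without library 5. For Gpr27 the shares were 0.399% and 0.327%, and for Retnlg 0.282% and 0.319%. Mmp9, a neutrophil gelatinase, had 0.337% and 0.437%, and Ly6g 0.566% and 1.69%. Csf3r, the G-CSF receptor, had 5.70% and 4.38%, and the summed mature neutrophil list of 18 genes 5.74% and 7.01%. Prok2, Gpr27 and Retnlg thus had lower shares than the list as a whole and than Csf3r. Mmp9 and Ly6g, which lay nearer to them, are themselves members of that list. Mmp9 was also the gene most like Gpr27 and Retnlg over these libraries, and Ly6g is part of the Gr-1 epitope. Their nearness is therefore a description only. Eif4e3, at 55.7% and 103%, did not have such low shares. The part of Gr-1hi-like cells in the Gr-1lo libraries was not tested.

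**Figure D2:**
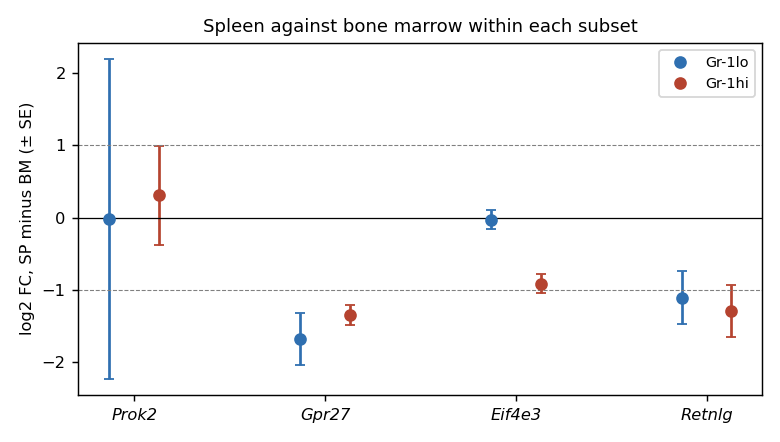
Log2 FC of SP minus BM with its SE from the edgeR fit, for Gr-1lo (blue) and Gr-1hi (red) cells; dashed lines mark a 2-fold difference. Gpr27 lies below the lower line in both subsets, Retnlg too, Eif4e3 is near 0 in Gr-1lo and at −0.91 in Gr-1hi cells, and the SE of Prok2 spans 0 in both.

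The comparison of SP with BM within each subset asks how the spleen-derived cells differ from their marrow counterparts. It was not the comparison by which the genes stood out, although it uses the same BM libraries. A gene was called at an adjusted p of at most 0.05 (edgeR's quasi-likelihood test, Benjamini-Hochberg over 17650 genes) and an FC of at least 2.

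In Gr-1hi cells, Gpr27 and Retnlg fell in the SP. The log2 FC was −1.35 for Gpr27 (SE 0.14, adjusted p = 0.000382) and −1.30 for Retnlg (SE 0.36, adjusted p = 0.0309). Eif4e3 stood at −0.91 (SE 0.13, adjusted p = 0.00158), and missed the call since it was 1.88-fold. Prok2 had 0.31 (SE 0.69, adjusted p = 0.763). So 2 of the 4 genes were called, both lower, where 15.5% of all tested genes were called and 1.48% were called lower. As the 4 were chosen with these libraries known, this is not a test of them as a set. The call of Gpr27 held in each of 16 alternatives, with values from −1.52 to −1.14. The call of Retnlg was lost without library 5 (adjusted p = 0.203), 6 (0.0967), 9 (0.0780) or 10 (0.0510), without libraries 5 and 7 together (0.183) and without a filter on low counts (0.214). By the exact test on TPM after quantile normalization Retnlg was at −0.34 (adjusted p = 0.852), and every value stayed negative. Eif4e3 was called without library 6 (−1.13) or 9 (−1.07). The direction of Prok2 depended on library 5: without it the log2 FC was −1.26 (adjusted p = 0.0584), and without libraries 5 and 7 it was −1.16 (adjusted p = 0.145).

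In Gr-1lo cells, Gpr27 fell as well, from a level already close to the floor. Its log2 FC was −1.68 (SE 0.36, adjusted p = 0.0320), from 14 counts in SP against 35 in BM. The ratio of these counts alone had a 95% interval from −2.72 to −0.78 on the log2 scale. The call was lost without library 7 (adjusted p = 0.0684), 8 (0.296) or 12 (0.408), without libraries 5 and 7 (0.0725) and in a fit of the 4 Gr-1lo libraries alone (0.0957). The exact test on TPM after quantile normalization gave −1.24 with an adjusted p of 1.0. Retnlg had −1.11 (SE 0.37, adjusted p = 0.160), but was called by DESeq2 (−1.17, adjusted p = 0.00647) and by the exact test on TPM (−1.22, adjusted p = 0.0296). Eif4e3 had −0.03 (SE 0.13, adjusted p = 0.934) and Prok2 −0.02 (SE 2.21, adjusted p = 0.999). For Prok2, 17 against 13 counts gave a 95% interval of the log2 ratio from −1.14 to 1.16, so a difference of 2-fold either way was not detectable at this depth. In this comparison 4.06% of all genes were called, 3.84% higher and 0.215% lower.

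The SP and BM difference was set side by side in the 2 subsets. For Gpr27 the values −1.35 and −1.68 differed by 0.33 (SE 0.37) and for Retnlg by −0.19 (SE 0.51), which is within their errors. For Eif4e3 the difference between Gr-1hi and Gr-1lo was −0.88 (SE 0.18), with values from −1.12 to −0.78 when each library was left out. For Prok2 it was 0.32 with an SE of 2.35, too wide to read a direction from. These contain the comparison of Gr-1hi with Gr-1lo, known when the genes were chosen, and no test was made.

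Genes of other cell types also moved between the tissues. In Gr-1hi 14.0% of all genes were called higher in SP and 1.48% lower, and in Gr-1lo 3.84% and 0.215%. Summed CPM of the 10 secondary granule genes was 34707 in library 5 and 62012 in library 6, against 76925 and 86691 in BM Gr-1hi. SP Gr-1hi was thus lower in this sum, as in Retnlg and Gpr27, but only 1 of the 10 genes was called, lower. The 18 mature neutrophil genes summed to 33960 and 34780 CPM in SP Gr-1hi and to 41371 and 38674 CPM in BM Gr-1hi, and 1 of the 18 was called, lower. The 6 primary granule genes summed to 18.8 to 27.3 CPM in SP Gr-1hi and 49.1 to 52.2 CPM in BM Gr-1hi, and 3 of the 6 were called lower. B cell genes summed to 411 to 610 CPM in SP Gr-1hi and 17.0 to 20.8 in BM Gr-1hi, and all 10 were called higher. Erythroid genes ran from 218 to 734 CPM against 35.9 to 44.1 CPM, with 6 of 7 called higher. Of 12 monocyte genes 5 were called higher in SP Gr-1hi, although their summed CPM was lower there, at 1506 to 1660 against 1830 to 2332. In Gr-1lo the sum of the secondary granule genes was higher in SP, at 11304 to 12388 against 6544 to 7355 CPM, opposite to Gpr27 and Retnlg. Of these 10 genes 5 were called higher. The mature neutrophil sum was slightly higher in SP as well, at 2388 to 2431 against 2273 to 2323 CPM, with 0 of 18 called. The primary granule sum there was lower in SP, as were Gpr27 and Retnlg, at 1216 to 2174 against 3281 to 3318 CPM, with 1 of 6 called lower. B cell genes in Gr-1lo summed to 75.9 to 96.6 CPM in SP and 8.60 to 10.6 CPM in BM, with 9 of 10 called higher, and erythroid genes to 167 to 233 against 7.70 to 8.29 CPM, with 7 of 7 called higher. The part of these genes' cells in the results for Gpr27, Retnlg and Eif4e3 was not tested.

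Around Prok2, a large excess of Gr-1hi over Gr-1lo cells was seen for some genes and not for others between or beside them. Eif4e3 and Gpr27 are 25907 bases apart, and Gpr27 and Prok2 16232 bases. Within 500 kb of Prok2, GENCODE annotates 15 other genes besides Gpr27 and Eif4e3, of which 7 passed the filter. In BM, 2 of the 7 were called higher in Gr-1hi than in Gr-1lo (Gm26748 and Gm44104) and 2 lower (Foxp1 and Gm6681). Of all genes 57.3% were called, 24.2% higher and 33.1% lower. Gm26748, with 0 counts in Gr-1lo, passed the filter only through Gr-1hi and could only be called higher. The shares of all genes are therefore no measure for it in either tissue. With total-count scaling the share of higher genes among all called fell from 42.3% to 21.8%. In SP 2 were higher, the same ones, and Gm6681 was lower, where 49.6% of all genes were called, 22.3% higher and 27.4% lower, and the share of higher genes fell there from 44.8% to 24.9% with that scaling.

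Gm26748, an antisense transcript, starts within the 5′ end of Prok2 and runs the other way. It had 115 and 21 counts in the SP Gr-1hi libraries, 32 and 55 in those of BM, and 0 in each of the 4 Gr-1lo libraries. With the Gr-1lo group set to a floor of 3 counts, it was at least 57.9-fold higher in Gr-1hi in BM and at least 93.9-fold higher in SP. It followed Prok2 from library to library. Per 100 counts of Prok2 there were 3.82, 3.39, 3.83 and 3.90 counts of Gm26748 in libraries 5, 6, 9 and 10, with 95% counting intervals from 2.08 to 5.45 in all. The 2 genes overlap over 622 bases of their spans but share no exon bases. The kit was stranded and the deposited counts are labelled stranded, but the strand setting itself is not given. Reads from outside the annotated exons of one could still have been given to the other, which was not tested.

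Gm44104, an unclassified transcript, lies within the span of Eif4e3 on the same strand (chr6:99658442-99662218) and shares no exon base with it. It moved in opposite directions in the 2 subsets. The counts were 102 and 101 in SP Gr-1hi, 213 and 195 in BM Gr-1hi, 28 and 46 in SP Gr-1lo, and 7 and 10 in BM Gr-1lo. In CPM these are 3.07 and 3.22, 7.96 and 8.05, 0.591 and 0.533, and 0.143 and 0.189, with no overlap between any of the groups. The share of all genes that part the groups in this way was not counted. It rose in the SP in Gr-1lo (log2 FC 1.73, SE 0.29, adjusted p = 0.0104 by edgeR) and fell in the SP in Gr-1hi (−1.35, SE 0.20, adjusted p = 0.00184). The difference of these differences was −3.07 (SE 0.35, adjusted p = 0.00257), where 9.74% of all genes were called, 7.74% higher and 2.00% lower. The rise in Gr-1lo was lost without library 8 (adjusted p = 0.0548), 11 (0.0917) or 12 (0.0593) and without libraries 5 and 7 (0.0503). Neither the rise nor the fall was called by the exact test on TPM after quantile normalization, at log2 values of 0.79 and −1.65. Per 100 counts of Eif4e3 there were 5.20 to 7.94 counts of Gm44104 in the Gr-1hi libraries, 0.866 and 1.08 in SP Gr-1lo, and 0.262 and 0.296 in BM Gr-1lo. Per 100 counts of Gpr27 the 4 Gr-1hi libraries were all within 8.80 to 10.1, but the 2 genes parted in Gr-1lo, where there were 467 and 575 in SP and 58.3 and 43.5 in BM, from 6 to 23 counts of Gpr27.

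Gm20696, a gene that joins exons of Foxp1 and Eif4e3, shares 373 of the 2515 exon bases of Eif4e3 (14.8%), so the counting could have split reads of Eif4e3. It had 25.6 to 34.1 counts per 100 of Eif4e3 in the 8 libraries, and its SP minus BM log2 FC was −0.73 in Gr-1hi (SE 0.11, adjusted p = 0.00224) and 0.10 in Gr-1lo (SE 0.11, adjusted p = 0.656). Foxp1, the forkhead factor gene on the far side of Eif4e3, ran against Eif4e3. It was lower in Gr-1hi than in Gr-1lo in BM (log2 FC −1.21, SE 0.11, adjusted p = 9.75e-06), and its SP minus BM value in Gr-1hi was 0.77 (SE 0.11, adjusted p = 0.00145), under the FC minimum. The BM value was −2.02 with total-count scaling and −0.76 (adjusted p = 0.200) by the exact test on TPM after quantile normalization, which did not call Foxp1.

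**Figure D3:**
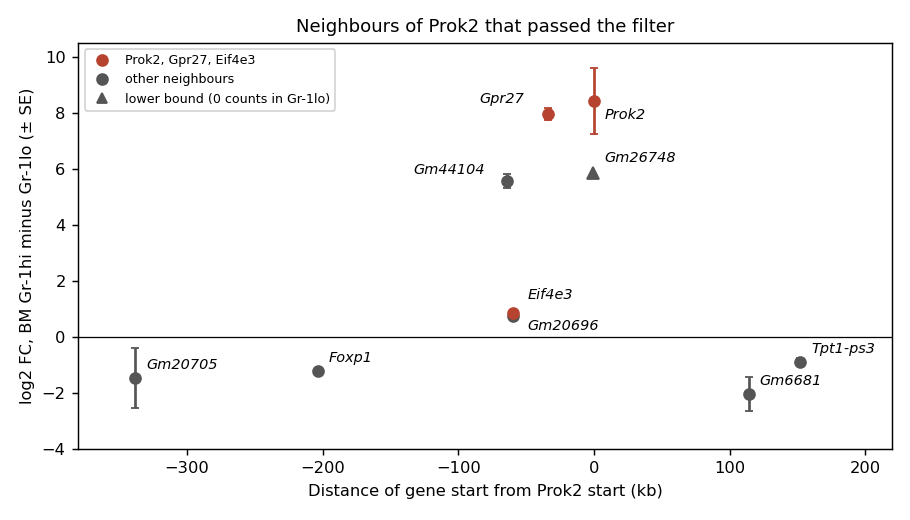
Log2 FC of Gr-1hi minus Gr-1lo in BM (± SE) against the distance of each gene's start from that of Prok2, in kb, for the genes within 500 kb that passed the filter. Prok2, Gpr27 and Gm44104 lie at 5.56 or above, Gm26748 is drawn as a lower bound, Eif4e3 and Gm20696 lie between 0.74 and 0.85, and the genes farther out lie below 0.

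The rest of the prokineticin system was close to absent. Prok1, the sister ligand, had 0 to 5 counts per library, Prokr1 0 to 8 and Prokr2 0 or 1. None of these 3 genes passed the filter, so the ligand was measured in Gr-1hi cells while neither receptor could be tested at this depth in any group. None of the 713 windows of 101 bases, the read length, in the Prok1 transcript was found in that of Prok2, and the nearest differed at 35 bases.

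The G-CSF and STAT3 list covers the signalling named above for PROK2, with receptor chains, kinases and the inhibitor gene Socs3. Of 12 genes 11 passed the filter, and Csf3, which encodes G-CSF itself, had 0 to 2 counts in every library. In Gr-1hi, 2 of the 11 rose in the SP, where 14.0% of all genes did: Socs3, a feedback inhibitor induced by STAT3 (log2 FC 2.06, SE 0.17, adjusted p = 0.000208), and Il6st, the shared receptor chain gp130 (1.63, SE 0.45, adjusted p = 0.0345). The call of Il6st was lost when any 1 library but 6 or 10 was left out (adjusted p from 0.0557 to 0.198), without libraries 5 and 7 (0.334), without a filter on low counts (0.161), in a fit of the 4 Gr-1hi libraries (0.0626) and by the exact test on TPM after quantile normalization (1.09, adjusted p = 1.0). Socs3 was at 1241 and 1019 CPM in libraries 5 and 6 against 263 and 277 CPM in BM Gr-1hi. Csf3r had 9073 and 6879 CPM in SP Gr-1hi and 4973 and 3830 CPM in BM Gr-1hi. Its log2 FC of 0.86 (SE 0.16, adjusted p = 0.00565) was under the FC minimum, but with total-count scaling it was 1.07. Outside the 4 genes, alternatives were checked for lost calls and not for gained ones. Stat3 had 0.01 (SE 0.09, adjusted p = 0.933). In Gr-1lo none of the 11 was called, and Socs3 had 0.92 (SE 0.17, adjusted p = 0.0161), under the FC minimum. Libraries 5 and 6, with Prok2 4.60-fold apart, were thus both above the BM libraries in Socs3 and Csf3r. A link of these genes to the level of Prok2 was not tested.

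Retnlg was not alone in its family in being higher in Gr-1hi cells, but its level per length was far above those of its relatives. It had 10952 to 26697 TPM in the Gr-1hi libraries, where Retnla had 9.15 to 18.5 TPM, Retn 1.45 to 3.19 TPM and Retnlb 0.634 to 2.77 TPM. Retnla had 87, 122, 173 and 141 counts in libraries 5, 6, 9 and 10 and at most 3 in a Gr-1lo library. The log2 ratio of Gr-1hi to Gr-1lo from these counts was 7.71 (95% interval 6.15 to 9.99) in BM and 8.76 (6.26 to 14.07) in SP. Retnlb had 7, 8, 30 and 16 counts and none in Gr-1lo, which made it at least 30.6-fold higher in Gr-1hi in BM and at least 10.4-fold in SP. Retn, resistin itself, had 80 and 77 counts in SP Gr-1hi, 38 and 34 in BM Gr-1hi and 1 to 9 in Gr-1lo, with log2 FCs of 4.72 (SE 0.56, adjusted p = 8.15e-05) in SP and 3.80 (SE 0.59, adjusted p = 0.000368) in BM. With the proposed receptors Cap1 and Tlr4, 4 of 5 genes were called higher in Gr-1hi in BM and 5 of 5 in SP. Of all genes 24.2% and 22.3% were called higher. Retnla, Retnlb and Retn had at most 9 counts in a Gr-1lo library. They passed the filter only through Gr-1hi, so the shares of all genes are no measure for them. With total-count scaling Cap1 (0.91) and Tlr4 (0.62) were under the FC minimum in SP. Between SP and BM in Gr-1hi, Retnlb fell (log2 FC −1.93, SE 0.55, adjusted p = 0.0366), a call that was lost without any 1 of libraries 5, 6, 9 and 10 (adjusted p from 0.0567 to 0.194), without libraries 5 and 7 (0.182), with total-count scaling (0.0546), by DESeq2 (0.0633) and by the exact test on TPM after quantile normalization (0.159). Retnla had −0.92 (SE 0.35, adjusted p = 0.0774) and Retn 0.78 (SE 0.44, adjusted p = 0.205), which is of the other sign from Retnlg.

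Retnla and Retnlb are close copies of Retnlg, so it matters whether their counts could be its reads. In the coding sequence Retnlg and Retnla were identical at 84.0% of 351 aligned bases, Retnlg and Retnlb at 81.3% of 315 and Retnlg and Retn at 67.5%. The longest runs that the coding sequence of Retnlg shares with those of its neighbours are shown. Within the coding sequence they set how short a read would have to be to fit both genes. The untranslated parts were not searched for such runs. The first run is bases 18 to 59 of the Retnlg coding sequence and the second bases 244 to 269. Lower case is used throughout as no base is marked.
Retnlg and Retnla: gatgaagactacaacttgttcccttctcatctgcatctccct
Retnlg and Retnlb: tgtgcttgtggctatggctgtggatc
These runs of 42 and 26 bases are shorter than a read of 101 bases. None of the 499 windows of that length in Retnla and none of the 596 in Retnlb occurred in Retnlg, and the nearest ones differed at 6 and 7 bases. Retnla nevertheless kept a narrow ratio to Retnlg, with 0.0698 to 0.0962 counts per 100 in the 4 Gr-1hi libraries. A read with errors could still be placed on the wrong copy, and the part of such reads was not tested.

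Other neighbours of Retnlg did not all share its pattern. Of the 14 genes annotated within 500 kb, 6 passed the filter. In BM, Retnlb, Retnla and Trat1 were called higher in Gr-1hi, and Cip2a and the pseudogene Gm8670 lower. Of all genes 24.2% were called higher and 33.1% lower. Retnlb and Retnla passed the filter only through Gr-1hi, so they could hardly be called lower. Trat1, a T cell adaptor, also rose in the SP in both subsets, but the call was lost in Gr-1lo without library 8, 9, 10, 11 or 12 (adjusted p from 0.0569 to 0.206) and in Gr-1hi without library 5, 9 or 10 (0.0587 to 0.0650). Of the T cell markers 8 of 8 were called higher in the SP in Gr-1lo and 7 of 8 in Gr-1hi, where 3.84% and 14.0% of all genes were.

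Eif4e3 formed a larger part of the eIF4E family in Gr-1hi than in Gr-1lo cells, where its relatives were higher. TPM, which correct for the length of all annotated exons of a gene, are used to compare genes, so the shares rest on these lengths. In mean CPM, without that correction, Eif4e3 and Eif4e were both at 59.3 in BM Gr-1lo. In SP Gr-1lo they were at 58.2 and 46.2 CPM. Eif4e3 was at 68.4 and 73.1 TPM in BM Gr-1hi and at 67.7 and 77.4 TPM in BM Gr-1lo. Eif4e, the main cap-binding gene, was at 4.20 and 5.20 TPM in BM Gr-1hi and at 29.9 and 30.8 TPM in BM Gr-1lo. In SP, Eif4e3 was at 42.6 and 47.5 TPM in Gr-1hi and at 65.7 and 70.7 TPM in Gr-1lo, and Eif4e at 5.67 and 5.78 against 23.0 and 22.4 TPM. Eif4e3 thus made up 82.1% and 82.2% of the summed TPM of Eif4e, Eif4e2 and Eif4e3 in BM Gr-1hi, 69.5% and 73.3% in SP Gr-1hi, 58.9% and 60.9% in SP Gr-1lo, and 55.5% and 58.5% in BM Gr-1lo. The shares did not overlap between any of the groups, but in Gr-1lo those of SP and BM came as close as 58.9% and 58.5%. How many other ratios part the groups in this way was not counted. Being ratios within a library, the shares do not depend on library scaling.

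**Figure D4:**
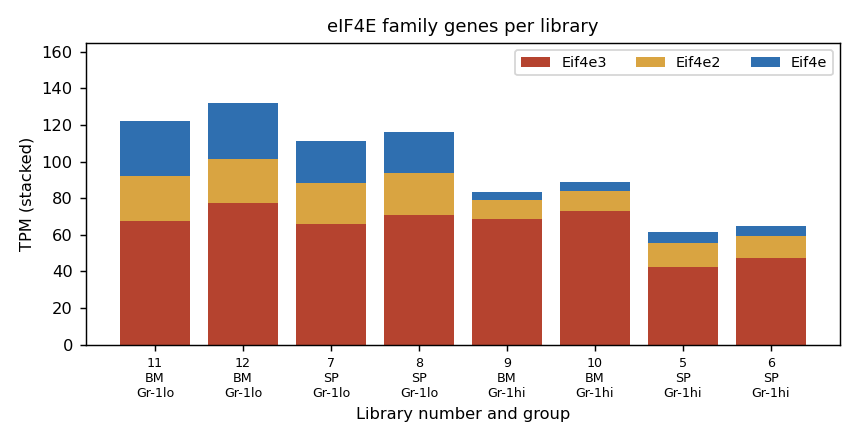
Stacked TPM of Eif4e3, Eif4e2 and Eif4e in each of the 8 libraries. By this measure, which rests on exon lengths, Eif4e3 is the largest part in every library, from 55.5% to 82.2% of the 3 genes. Eif4e is 5.04% to 9.25% in Gr-1hi and 19.3% to 24.5% in Gr-1lo cells.

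Other genes of cap-binding initiation were called in both directions with TMM scaling. Of 18 further genes 17 passed the filter. In BM, Eif4e (log2 FC −1.81), the helicase gene Eif4a1 (−1.93) and the scaffold gene Eif4g1 (−1.44) were lower in Gr-1hi, and Eif4ebp1, whose product holds eIF4E back (1.07), and the eIF4E kinase gene Mknk1 (1.22) were higher. The same 5 genes were called in SP, at −1.43, −1.63, −1.11, 1.31 and 1.08. These are 5 of 17 genes, where 57.3% of all genes were called in BM and 49.6% in SP. None of the 17 was called between SP and BM in either subset, where 15.5% of all genes were called in Gr-1hi and 4.06% in Gr-1lo. The list's median was 0.16 in BM and −0.02 in SP, beside −0.17 and −0.09 for all genes. Under total-count scaling the values of Eif4ebp1 and Mknk1 stayed positive but were no longer called, and those of Eif4e, Eif4a1 and Eif4g1 stayed negative. Eif4b (−1.45), Eif4h (−1.36), Pabpc1 (−1.39) and Eif4e2 (−1.11) then also passed 2-fold downward in BM. None of the 17 passed 2-fold upward there, and the median of all genes was −0.99. Eif4g1 in SP missed the FC minimum with RLE scaling and with DESeq2 (−0.97 in both), and Mknk1 in SP missed it without library 7 (0.99), without libraries 5 and 7 (0.98) and without a filter on low counts (0.94). Eif4ebp1 in BM missed it without that filter (0.97). By the exact test on TPM after quantile normalization, Mknk1 in both tissues (0.87 and 0.80) and Eif4ebp1 in BM (0.71) were under it too.

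Within the SREB family Gpr27 had the opposite pattern to Gpr85. Gpr85 had 33 and 46 counts in SP Gr-1lo, 24 and 9 in BM Gr-1lo and 0 to 2 in the Gr-1hi libraries, and was lower in Gr-1hi in BM (log2 FC −2.42, SE 0.88, adjusted p = 0.0336) and in SP (−5.06, SE 0.97, adjusted p = 0.00152). Gpr173 had 1 count in all. The call in BM was lost without library 9 (adjusted p = 0.183), 10 (0.0851) or 11 (0.193) and by DESeq2 (0.0719).

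The genes most like each of the 4 were taken by the smallest root mean square difference of centred log2 CPM over the 8 libraries, as a description. For Gpr27 these were Mmp9 (0.41), Retnlg (0.47), Amer2 (0.51), Stfa2 (0.54) and Dmwd (0.65). For Retnlg they were Mmp9 (0.37), Cstdc4 (0.46), Gpr27 (0.47), Amer2 (0.48) and Stfa2l1 (0.60), so that Gpr27 and Retnlg, on different chromosomes, were each within the other's first 3. For Prok2 they were Ankrd33b (0.56), Stfa2l1 (0.59), Csta2 (0.60), Asprv1 (0.60) and Snai1 (0.65), and neither Gpr27 nor Eif4e3 was among them. For Eif4e3 they were Coro7 (0.05), Pacsin2 (0.09), Copg2 (0.10), Slc35e2 (0.10) and Zfp414 (0.11). The stefin A genes in these lists are near copies of each other, and their counts are uncertain for that reason. By correlation in place of this distance, 1 of the 5 genes was shared for Prok2, 2 for Eif4e3 and 0 for Gpr27 and Retnlg.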

How the data were processed

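Poly(A) RNA of sorted CD11b+Gr-1hi and CD11b+Gr-1lo cells was measured by stranded paired-end sequencing in 8 libraries, 2 per group. The authors checked reads with FastQC, filtered them with Sickle, aligned them to GRCm38 with STAR and counted them per gene with featureCounts and GENCODE M24, and deposited raw counts for 54188 genes without normalization. The counts are labelled stranded, but the strand setting of the counting is not given in the sources used here.

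In edgeR 4.0.16 (R 4.3.3), filterByExpr with default settings kept 17650 genes, TMM scaled the libraries, and the 8 libraries entered a single quasi-likelihood model of the 4 groups, which left 4 residual degrees of freedom. Benjamini-Hochberg adjustment covered all genes kept. The call threshold was an adjusted p of 0.05 and an FC of 2. SE were the size of the log2 FC divided by the root of F. They are approximate, and those of 2 comparisons do not combine into that of their difference. DESeq2 1.42.0, limma 3.58.1 (for quantile normalization) and edgeR's exact test on TPM after quantile normalization, the values that the study tested, served as alternatives. Exon lengths and neighbours came from GENCODE M21 on the same build, and 53947 gene identifiers had a length. Upstream sequences came from RefSeq (GRCm38.p6), which matched 2 of the 4 genes, and alignments were made with Biopython 1.88. Counting intervals are exact 95% intervals and cover counting error only. The fit was tested on simulated counts.

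The 4 genes, the lists of related genes and the marker lists were chosen with earlier results of these data known. The genes named are the 4 genes, those of the lists and within 500 kb, the 5 most alike, and the checks of the labels. Alternatives were other scalings, no filter, each library left out, a fit of the 4 libraries compared, and the tools above.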

Additional observations from a re-analysis of the deposited data

Results flagged for a closer look

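The SP minus BM difference of Gm44104, the transcript within the span of Eif4e3, differed between the subsets. The log2 FC was −1.35 in Gr-1hi and 1.73 in Gr-1lo cells, and the interaction of −3.07 (SE 0.35, edgeR adjusted p = 0.00257) stayed called in each of the 14 alternatives run for it, with values from −3.29 to −2.87. All libraries of Gr-1hi moved one way and those of Gr-1lo the other.

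Socs3 was also flagged by the test of the interaction. Its SP minus BM log2 FC was 2.06 in Gr-1hi and 0.92 in Gr-1lo cells, a difference of 1.14 (SE 0.24, edgeR adjusted p = 0.0169). It was not called without library 5 (0.90), 8 (0.99), 9 (1.02), 10 (1.06) or 11 (0.92), whereas the direction was the same throughout.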

How the results depend on the processing

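Without libraries 5 and 7, a choice made after seeing the data, Prok2 had 0.22 in Gr-1lo and −1.16 in Gr-1hi for SP minus BM, Gpr27 −1.87 and Eif4e3 0.042 in Gr-1lo, Retnlg −1.10 in Gr-1hi and Prok2 6.99 for Gr-1hi minus Gr-1lo in SP, with 1617 genes called in Gr-1hi and 1 pathway gene in place of 3. With upper-quartile scaling the Gr-1lo values were 0.021 for Prok2 and 0.011 for Eif4e3, and without a filter 0.036 and 0.020, with 1077 genes called and Retnlg −1.28 in Gr-1hi. The fit of 4 libraries gave Gpr27 −1.64 in Gr-1lo, and DESeq2 gave Retnlg −1.17. Quantile-normalized TPM gave −1.24 for Gpr27 and −1.22 for Retnlg in Gr-1lo, −0.34 for Retnlg in Gr-1hi, 7.28, 7.13, 0.46 and 7.17 for Prok2, Gpr27, Eif4e3 and Retnlg (Gr-1hi minus Gr-1lo, BM) and 7.23 for Gpr27 in SP, with 273, 688, 5679 and 4602 genes called in Gr-1lo, Gr-1hi, BM and SP. Total-count scaling, also added later, gave 7.14, 0.033 and 7.67 for Gpr27, Eif4e3 and Retnlg in BM and 7.69 and −0.64 for Gpr27 and Eif4e3 in SP. The cause of these changes was not tested.

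When each library was left out in turn, SP minus BM in Gr-1lo ran from −0.57 to 0.61 for Prok2, from −2.02 to −1.20 for Gpr27 and from −0.13 to 0.090 for Eif4e3, with 389 to 785 genes and 0 to 1 pathway genes called. In Gr-1hi it ran from −1.26 to 0.95 for Prok2, from −1.13 to −0.86 for Eif4e3 and from −1.58 to −1.20 for Retnlg, with 1715 (without library 5) to 3518 genes and 1 to 3 pathway genes called. Gr-1hi minus Gr-1lo in SP ran from 7.99 to 8.43 for Gpr27.

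No paired analysis was possible because the groups share no replicate numbers and the labels do not say which libraries came from 1 mouse. Over the 4 genes and the counts of calls, 380 values under these alternatives stayed the same, 15 reversed, 13 lost the call, 4 gained one and 27 moved further. A gene's value stayed the same if it kept the direction and the side of the threshold or, where untested, lay within the replicate spread. A count of calls stayed the same if it lay within a fixed fold limit of the first count. Depth limits Prok2 and Gpr27 in Gr-1lo, with 4 to 23 counts per library, and 2 libraries per group limit every test. Leaving out a library leaves 1 in its group, which is assumed to vary like the others.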
